A study of Mus musculus with 16 samples.

Results

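Enzymes and complex subunits that write histone methylation were followed, 10 of 43984 genes in the table of histone marks and of 55471 in that of CpG methylation. They were chosen by name for what they do, not for their values, although earlier results of these data were known. Setd1a, Setd1b, Kmt2a and Kmt2b methylate lysine 4 of histone H3 (H3K4), and Setd2 and Nsd1 methylate lysine 36. Ezh2, Eed, Suz12 and Jarid2 belong to the Polycomb repressive complex PRC2, which methylates lysine 27. Of the 10, 8 were found in the histone table by these names. Kmt2a is listed there as Mll1 and Kmt2b as Wbp7, and both were matched by Ensembl identifier. The study asked whether induced pluripotent stem cells (iPSCs) keep marks of the cell they came from. It compared lines PTC11 and PTC12, from kidney proximal tubule cells, with lines TTF1 and TTF4, from tail tip fibroblasts, by ChIP-seq for H3K4me3, H3K36me3 and H3K27me3 and by nanopore sequencing of CpG methylation. All lines came from young adult mice of the same genotype, SLC34a1-GCE, tdTomato, rtTAROSA (neo-in) and OKMS-250 combined, in which doxycycline switches on the reprogramming factors once Cre has removed a neo cassette, and the mice had been fed tamoxifen. In the proximal tubule that Cre comes from the SLC34a1-GCE allele, whereas the fibroblasts received it from an episomal plasmid, so that the route of Cre and the cell of origin cannot be told apart. Each line is 1 doxycycline-independent clone of low passage, such lines were kept on mouse embryo fibroblast feeders, and each has 1 library here for H3K4me3, H3K36me3 and methylation, so that a line is the replicate and the spread within an origin rests on 2 lines.

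Histone methylation is written by enzymes that each favour a site. SETD1A and SETD1B are the catalytic subunits of the COMPASS complexes that place much of the H3K4me3 at active promoters, and KMT2A and KMT2B do so at developmental genes, KMT2B in particular at the bivalent promoters of pluripotent cells. SETD2 travels with elongating RNA polymerase II and trimethylates H3K36 over the gene body, while NSD1 makes the dimethylated form, much of it between genes, and is the gene mutated in Sotos syndrome. In PRC2, EZH2 is the methyltransferase, EED reads H3K27me3, SUZ12 holds the complex together, and JARID2 is an accessory subunit abundant in pluripotent cells that helps bring the complex to its targets. H3K4me3 and DNA methylation seldom occupy the same CpG-rich promoter, and H3K36me3 over a gene body accompanies its transcription. What was measured here are these marks on the genes of the writers themselves, not the amount or activity of the proteins.

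All 10 genes are annotated as protein coding. On mm10, the build of the files, the H3K4 writers lie at chr7:127776670-127800122 (Setd1a, plus strand), chr5:123142193-123168629 (Setd1b, plus), chr9:44803355-44881296 (Kmt2a, minus) and chr7:30568858-30588726 (Kmt2b, minus). Setd2 spans chr9:110532597-110618633 and Nsd1 chr13:55209782-55318325, both on the plus strand. The PRC2 genes lie at chr6:47530139-47595341 (Ezh2, minus), chr7:89954654-89980983 (Eed, minus), chr11:79993106-80034123 (Suz12, plus) and chr13:44729474-44921643 (Jarid2, plus). The start of every member is rich in CpG, the dinucleotide whose cytosine can be methylated: within 1000 bases to each side of the transcription start site (TSS) the reference holds from 108 CpGs at Nsd1 to 178 at Setd2, against a median of 24 over 51555 genes. RefSeq promoters were matched for 7 of the 10 genes, and Setd1b, Kmt2b and Nsd1 have no entry in that table. The 250 bases before the RefSeq start are printed for the 4 genes whose RefSeq start lies within 7 bases of the one used here. They show how CpG is spread in only a part of the stretch behind the methylation values below, 1000 bases to each side. The build is GRCm38.p6, the letters run 5′ to 3′ on the strand of the gene, and capitals mark each CG, which reads the same on both strands. The stretches are chr9:44881290-44881539 (Kmt2a, minus strand), chr9:110532347-110532596 (Setd2, plus), chr11:79992856-79993105 (Suz12, plus) and chr7:89980977-89981226 (Eed, minus).
Kmt2a: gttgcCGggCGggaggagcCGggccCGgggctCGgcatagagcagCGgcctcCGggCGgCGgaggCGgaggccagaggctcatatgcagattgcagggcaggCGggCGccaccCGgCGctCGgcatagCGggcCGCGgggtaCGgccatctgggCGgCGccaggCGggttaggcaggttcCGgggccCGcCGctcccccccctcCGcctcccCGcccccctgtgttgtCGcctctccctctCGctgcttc
Setd2: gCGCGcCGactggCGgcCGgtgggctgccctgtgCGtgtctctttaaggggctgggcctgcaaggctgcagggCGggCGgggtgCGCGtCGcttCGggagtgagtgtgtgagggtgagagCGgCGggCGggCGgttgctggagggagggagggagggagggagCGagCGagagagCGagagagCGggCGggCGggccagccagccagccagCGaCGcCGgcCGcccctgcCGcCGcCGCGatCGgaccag
Suz12: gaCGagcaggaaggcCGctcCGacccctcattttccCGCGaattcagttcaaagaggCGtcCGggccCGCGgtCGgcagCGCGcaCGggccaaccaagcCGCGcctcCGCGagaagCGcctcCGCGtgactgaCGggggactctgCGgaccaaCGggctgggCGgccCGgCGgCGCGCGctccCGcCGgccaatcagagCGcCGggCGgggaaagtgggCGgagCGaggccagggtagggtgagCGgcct
Eed: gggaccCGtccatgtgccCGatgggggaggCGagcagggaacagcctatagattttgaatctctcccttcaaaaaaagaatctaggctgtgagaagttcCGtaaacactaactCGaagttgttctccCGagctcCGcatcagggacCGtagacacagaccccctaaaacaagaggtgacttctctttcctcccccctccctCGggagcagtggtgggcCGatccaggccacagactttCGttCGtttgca
The Suz12 stretch holds 37 CpGs, a number reached by 2.2% of the 32851 RefSeq promoters of the same length, and those of Setd2 and Kmt2a hold 31 and 29, reached by 5.19% and 6.78%. Eed, with 12 CpGs, is less extreme, since 33.5% of promoters have as many. The median promoter holds 6.

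Histone values are RPKM, reads per kilobase scaled to the size of the library, above input and averaged over called peaks, taken along the gene body for H3K36me3 and at the TSS for the other marks, and where no peak was retained the gene is left empty. Methylation is the fraction of methylated CpGs around the TSS, from 0 to 1. Neither table gives reads or coverage, so the depth behind a value is unknown. The lines stand apart in ways that cross the cell of origin: the median of all genes with a value lay between 3.65 and 5.01 RPKM for H3K4me3, highest in TTF1 and PTC12, between 1.18 and 4.01 RPKM for H3K36me3, highest in TTF4 and PTC12, and between 0.374 and 0.770 for methylation, highest in TTF4. Markers of the labelled cell type were checked with H3K4me3. Of 12 pluripotency genes, 8 had a value in all 4 lines and 1, Esrrb, had none in any. Zfp42 and Dppa4 lacked a value only for TTF4, where their methylated fractions were 0.803 and 0.759. Elsewhere these fractions were at most 0.209 and 0.103. Of all genes with H3K4me3 in PTC11, PTC12 and TTF1, 7.52% had none in TTF4. Dnmt3l had H3K4me3 in TTF1 alone. TTF4 also lacked H3K36me3 at Pou5f1, Nanog and Zfp42, whereas every other line had that mark at all 12 genes. Over all genes TTF4 had the fewest with H3K36me3, 20381, against 29905 in PTC11, 23101 in PTC12 and 23466 in TTF1. No H3K4me3 value was found in any line at 8 of 12 proximal tubule markers and 7 of 16 fibroblast markers. Of the other proximal tubule markers, Lrp2 and Slc27a2 had a value in every line, and Aqp1 and Slc22a12 in PTC12 alone. Fibroblast markers with a value numbered 2 in PTC11, 9 in PTC12, and 9 and 6 in TTF1 and TTF4. Genes of any kind with H3K4me3 were also more numerous for PTC12 (19990) and TTF1 (19448) than for TTF4 (15368) or PTC11 (15114). How far the marker counts follow these totals, or feeder cells, was not tested.

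All 4 H3K4 writers carried H3K4me3 at the TSS in every line. Setd1a had 4.26 RPKM in PTC11 and 4.10 in PTC12 against 5.87 and 3.95 in TTF1 and TTF4, which makes it the most even of the 4, with only TTF1 standing out. Its close relative Setd1b had 3.71 RPKM in PTC11, 6.53 in PTC12, and 7.39 and 3.81 in TTF1 and TTF4. Kmt2a, whose human counterpart is rearranged in leukaemia, had 4.12, 5.91, 6.88 and 4.12 RPKM in the same order of lines. Kmt2b had 4.08 RPKM in PTC11 and 5.83 in PTC12 against 7.94 and 4.68 in TTF1 and TTF4, and its TTF1 value was the highest H3K4me3 of any member in any line. At Setd1b, Kmt2a and Kmt2b, lines PTC12 and TTF1 thus lay above PTC11 and TTF4, a split across the origins.

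Over their gene bodies the H3K4 writers followed the other split of the lines. H3K36me3 at Setd1a was 1.51 RPKM in PTC11, 2.73 in PTC12, and 1.26 and 4.52 in TTF1 and TTF4. Setd1b had 1.93, 3.92, 1.24 and 4.30 RPKM, Kmt2a 1.96, 4.70, 1.76 and 4.31 RPKM, and Kmt2b 1.98, 4.21, 1.87 and 4.26 RPKM in that order of lines. In each gene PTC12 and TTF4 lay above PTC11 and TTF1, as they did for the median of all genes. Setd1a in PTC12 was low for its line, at the 21.1st percentile of genes with a value, and it was at the 64.3rd in TTF4.

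CpG methylation at the start of the H3K4 writers was close to none, with 1 exception. The fraction at Setd1b was 0.0164 in PTC11 and 0.0219 in PTC12 against 0.00891 and 0.00813 in TTF1 and TTF4, at Kmt2a 0.0110, 0.00468, 0.0200 and 0.00668, and at Kmt2b 0.0167, 0.0277, 0.00463 and 0.0147. At none of these 3 genes was TTF4 the highest line, although its median over all genes was. Setd1a differed: it had 0.0716 in PTC11, 0.0580 in PTC12 and 0.0698 in TTF1, but 0.298 in TTF4. With 1 library and no coverage, that gap has no replicate check, and a gap of that size or more between TTF4 and the highest other line was not rare, since Setd1a ranked 12840th of 50657 genes.

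Setd2 had the highest H3K4me3 of the 10 genes by the mean of its percentiles among genes with a value, although Kmt2b lay slightly above it in TTF1. It measured 4.42 RPKM in PTC11, 7.16 in PTC12, and 7.90 and 4.69 in TTF1 and TTF4, between the 86.2nd and the 93.4th percentile of each line. Over its own gene body, the mark that SETD2 makes was near the middle of genes with a value, at percentiles 50.1 to 74.2. Setd2 had 1.60 RPKM of H3K36me3 in PTC11 and 4.29 in PTC12 against 1.20 and 4.98 in TTF1 and TTF4. Its methylated fraction was 0.0395 in PTC11, 0.00484 in PTC12, and 0.0552 and 0.0511 in TTF1 and TTF4, so that the TSS was nearly unmethylated in all lines.

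**Figure D1:**
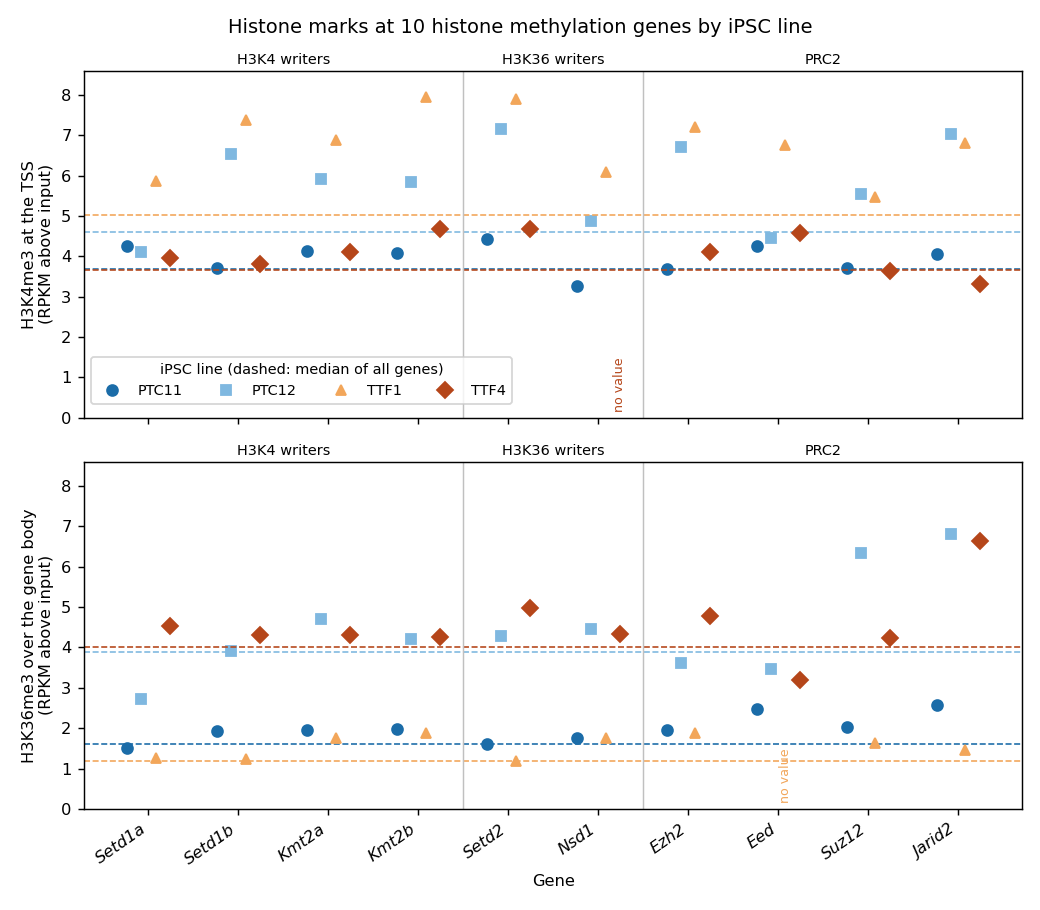
H3K4me3 at the TSS (upper panel) and H3K36me3 over the gene body (lower panel) of the 10 genes, in RPKM above input, with 1 point per line and a dashed line at the median of all genes with a value in that line. PTC12 and TTF1 are high for H3K4me3, PTC12 and TTF4 for H3K36me3, and "no value" marks Nsd1 in TTF4 (H3K4me3) and Eed in TTF1 (H3K36me3).

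Nsd1, the other H3K36 writer, was the member in which a line departed most from the rest. Its H3K4me3 was 3.25 RPKM in PTC11, 4.89 in PTC12 and 6.08 in TTF1, and TTF4 had no retained peak at its TSS. In that same line the fraction of methylated CpGs at the TSS was 0.993, against 0.0567 in PTC11, 0.00454 in PTC12 and 0.0995 in TTF1. The start of Nsd1 was thus almost fully methylated in TTF4 and almost unmethylated in the other lines, including TTF1 of the same origin. H3K36me3 over the gene body of Nsd1 was nevertheless present in TTF4, at 4.33 RPKM or the 59.3rd percentile of that line, beside 1.76 RPKM in PTC11, 4.47 in PTC12 and 1.75 in TTF1.

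How unusual Nsd1 was can be counted over all genes, with limits chosen after its values had been seen. The gap of 0.894 between TTF4 and the highest other line ranked 8th of 50657 genes with methylation in all 4 lines. A fraction over 0.9 in TTF4 and under 0.1 in every other line was found at 14 genes, or 0.0276% of them. Among 13615 of these genes with H3K4me3 in the other 3 lines there were 6, or 0.0441%: Nsd1, Tcl1, which encodes a cofactor of the kinase AKT, Pmaip1, which encodes the cell death protein NOXA, the noncoding gene Platr20, 4930448E22Rik and the pseudogene Vmn2r-ps15. Of the 6 genes, 5 (83.3%) had no H3K4me3 value in TTF4, the exception being Pmaip1 with 2.13 RPKM. Nsd1, whose values were seen before the limits were chosen, is counted among the 5. Vmn2r-ps15, another of them, had only 0.329 to 1.20 RPKM in the other lines. Among 2429 genes with a fraction under 0.1 in all 4 lines and H3K4me3 in the other 3 lines, 6 (0.247%) had no H3K4me3 value in TTF4, and over 14824 genes whatever their methylation the share was 7.52%. An empty H3K4me3 entry and a methylated start thus fell together in TTF4 at 5 genes of this short list, Nsd1 among them. H3K36me3 in TTF4 was present at 4 of the 6 genes, namely Nsd1, Platr20 (4.39 RPKM), 4930448E22Rik (1.98 RPKM) and Pmaip1 (7.56 RPKM).

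Genes with as many CpGs as Nsd1 were seldom methylated to that degree. Of 4931 genes with at least 108 CpGs within 1000 bases of the TSS and a value in TTF4, 37 (0.750%) had a fraction over 0.9 there, against 2 in PTC11, 5 in PTC12 and 1 in TTF1. In TTF4, 43.8% of such genes had a fraction under 0.1, where the other lines had 69.5% to 80.6%. The window of the methylation value does not hold every start of Nsd1. GENCODE lists 11 transcripts of the gene, 3 of which begin within 1000 bases of the start used in the files and 9 within 3000. Per the study's methods the H3K4me3 window reached 3000 bases past the TSS, and TTF4 had no retained peak there.

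**Figure D2:**
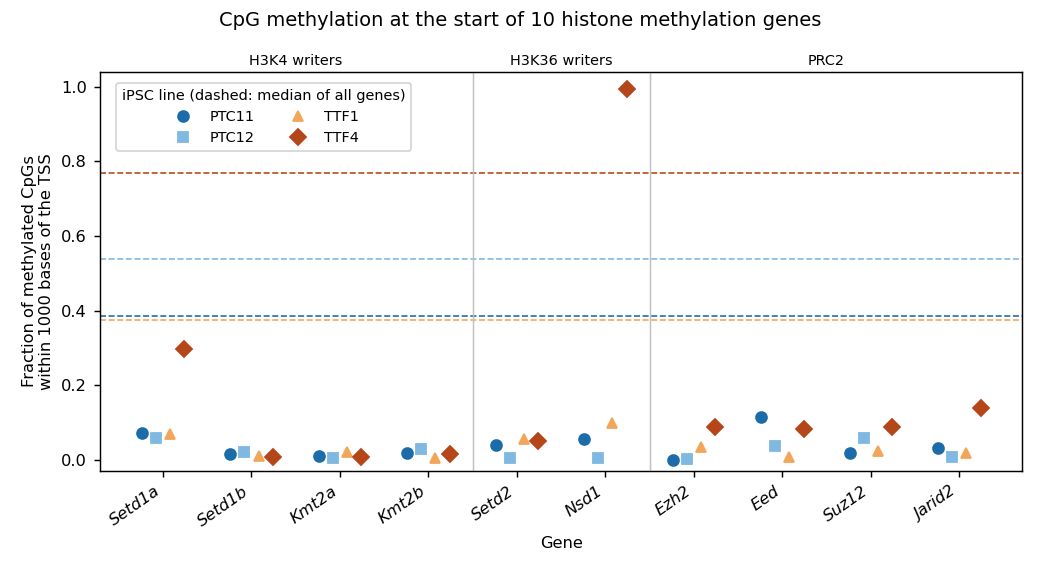
Fraction of methylated CpGs around the TSS of the 10 genes in each line, with dashed lines at the median of all genes in that line. All points but 1 lie below the median of their line: Nsd1 in TTF4, at 0.993, lies above it, and Setd1a in TTF4, at 0.298, is the next highest.

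The genes around Nsd1 were looked up to see how far the state of TTF4 reached. Within 250 kb, counted between starts, the annotation holds 14 other protein-coding genes. Their fractions in TTF4 ran from 0.0534 at Grk6, a kinase of G protein-coupled receptors, to 0.956 at Pfn3, a testis profilin, with a median of 0.556, and 12 of the 14 had their highest fraction in TTF4, against a background of 75.4% of all genes. All 8 neighbours with H3K4me3 in PTC11, PTC12 and TTF1 also had it in TTF4. The same held for most genes, since only 7.52% of all genes with H3K4me3 in those lines had none in TTF4. Among the neighbours, Rab24 and Prelid1 have the same H3K4me3 in every line, so that they are not separate observations. The nearest of the 8 upstream, Fgfr4, a receptor for fibroblast growth factors, starts at -57.1 kb and had 3.01 RPKM of H3K4me3 in TTF4. Slc34a1, the phosphate transporter gene whose promoter drives the Cre of these mice, starts 188 kb downstream, had no H3K4me3 value in any line, and had fractions of 0.616 in PTC11 and 0.594 in PTC12 against 0.187 and 0.864 in TTF1 and TTF4. The transgene is carried by all 4 lines, and any part of it in the values at Nsd1 was not tested.

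**Figure D3:**
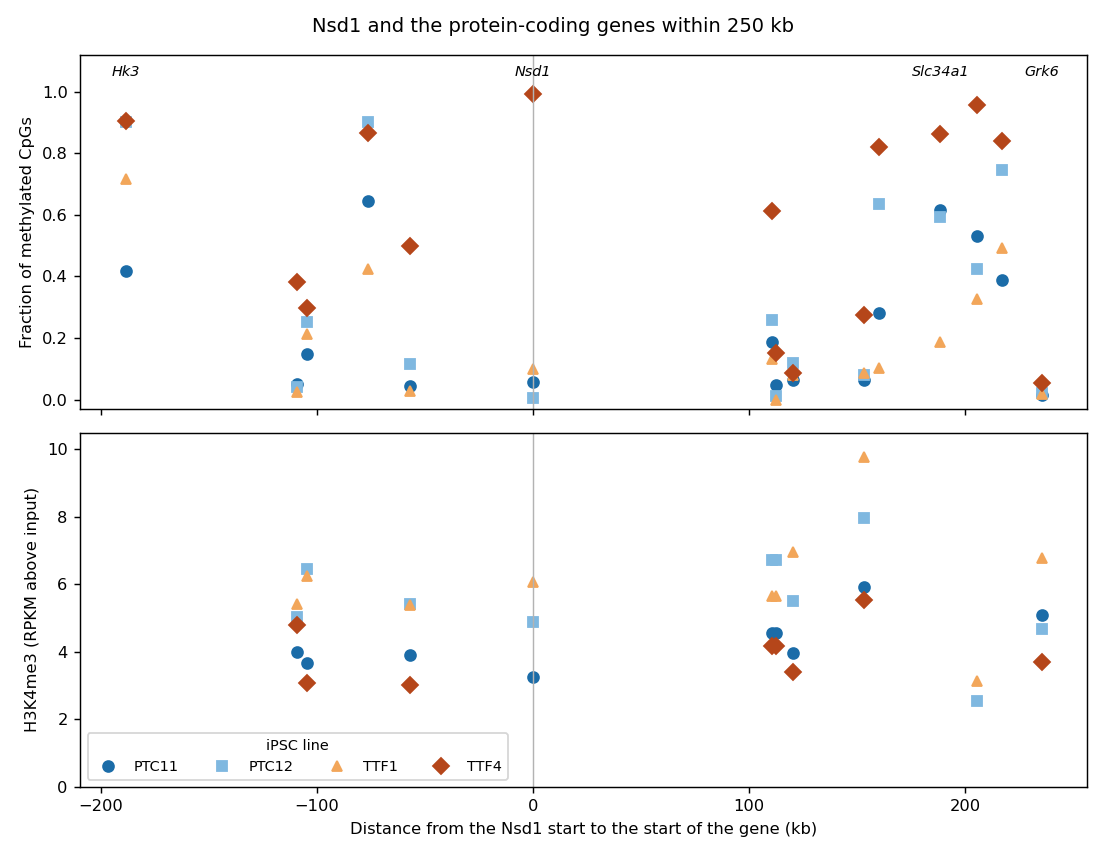
Fraction of methylated CpGs (upper panel) and H3K4me3 in RPKM above input (lower panel) for Nsd1 and the 14 protein-coding genes that start within 250 kb of it, against the distance between starts in kb, with 1 symbol per line. At distance 0, Nsd1 has a fraction of 0.993 and no H3K4me3 in TTF4, while the 8 neighbours with H3K4me3 in the other lines also have it in TTF4, as most genes do.

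Among the PRC2 genes, Ezh2 and Jarid2 had the widest range of H3K4me3 between lines. Ezh2, the methyltransferase, had 3.69 RPKM in PTC11, 6.72 in PTC12, and 7.20 and 4.10 in TTF1 and TTF4, and Jarid2 had 4.05, 7.03, 6.82 and 3.32 RPKM in that order. Suz12 ran from 3.64 RPKM in TTF4 and 3.70 in PTC11 to 5.48 in TTF1 and 5.54 in PTC12. Jarid2 in TTF4 lay below the median of that line, at its 32.9th percentile, whereas in PTC12 it reached the 91.9th. Eed, the reader subunit, had 4.25 RPKM in PTC11 and 4.45 in PTC12 against 6.76 and 4.59 in TTF1 and TTF4. The TTF lines exceeded the PTC lines at Eed without overlap, with the smallest gap, between PTC12 and TTF4, far narrower than the gap between TTF1 and TTF4. These values also stand for another gene: AC161229.1, a gene on the opposite strand whose start overlaps that of Eed (chr7:89980749-89981848), has the same H3K4me3 in every line.

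Jarid2 had the highest H3K36me3 of the 10 genes by mean percentile, although in TTF1 it lay below Ezh2, Kmt2b, Kmt2a, Nsd1 and Suz12. It measured 2.58 RPKM in PTC11, 6.82 in PTC12, and 1.46 and 6.64 in TTF1 and TTF4, at or above the 76.4th percentile of every line. Suz12 had 2.03 RPKM in PTC11 and 6.33 in PTC12 against 1.62 and 4.23 in TTF1 and TTF4, and Ezh2 had 1.95, 3.61, 1.88 and 4.78 RPKM. Eed was the only member without an H3K36me3 value in a line, TTF1. In the others it had 2.46 RPKM in PTC11, 3.47 in PTC12 and 3.19 in TTF4, which range from the 26.6th to the 93.6th percentile, the widest span of any member. A missing value in TTF1 was shared with 12.5% of the 19482 genes that had H3K36me3 in the other 3 lines.

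Promoters of the PRC2 genes were lightly methylated in all lines. Ezh2 was listed at 0 in PTC11 and had 0.00110 in PTC12, 0.0353 in TTF1 and 0.0871 in TTF4. Eed had 0.115 in PTC11, 0.0378 in PTC12, and 0.00769 and 0.0815 in TTF1 and TTF4, Suz12 0.0169, 0.0584, 0.0234 and 0.0880, and Jarid2 0.0313, 0.0074, 0.0171 and 0.139. TTF4 had the highest fraction at Ezh2, Suz12 and Jarid2, and PTC11 at Eed. All of these fractions lay in the lowest 21.9% of genes of their line.

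Relative to all genes with a value, the order of the members by H3K4me3 began with Setd2 (mean of the 4 percentiles 90.8), Kmt2b (82.8) and Kmt2a (77.0), and ended with Setd1a (63.3), Suz12 (57.3) and Nsd1 (50.7, over 3 lines). Ezh2 (74.5), Eed (74.3), Setd1b (71.5) and Jarid2 (69.6) lay between. Neighbours in that order overlapped over the lines and cannot be ranked against each other. Setd2 at 86.2 to 93.4 lay above the whole ranges of Kmt2a (74.1 to 83.1), Setd1a (39.8 to 80.7), Suz12 (49.2 to 69.6) and Nsd1 (25.3 to 70.4). By H3K36me3 the order was another, with Jarid2 first (88.7), then Suz12 (78.1), Kmt2a (74.1), Kmt2b (72.0), Ezh2 (70.9), Nsd1 (69.6), Setd1b (60.7), Setd2 (59.3), Eed (53.0, over 3 lines) and Setd1a (46.3). Again neighbours overlapped, while Jarid2 at 76.4 to 95.1 lay above Setd2 (50.1 to 74.2) and Setd1a (21.1 to 64.3) in full. Both marks are given per length, so that long and short genes can be set side by side, but the members were not compared beyond these ranges.

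**Figure D4:**
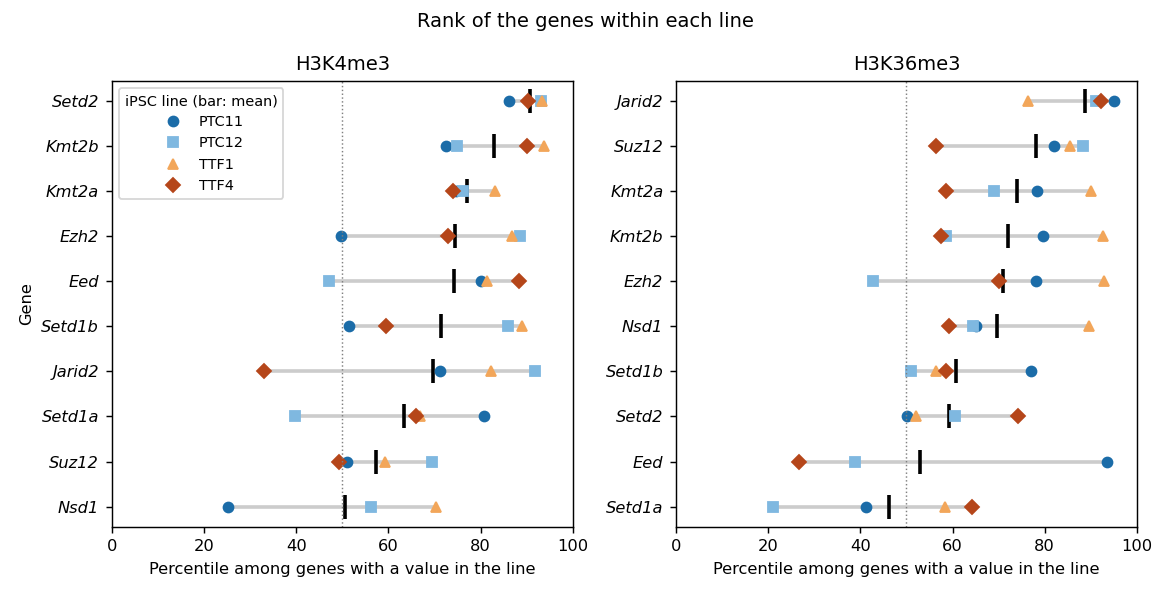
Percentile of each gene among all genes with a value in the same line, for H3K4me3 (left) and H3K36me3 (right), with 1 symbol per line, a grey bar over the range and a black tick at the mean. By the mean, Setd2 leads for H3K4me3 and lies near the middle for H3K36me3, where Jarid2 leads, and most other ranges overlap.

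To compare the origins, TTF minus PTC was fitted with limma on log2(RPKM + 1) for the histone marks, a scale that understates the change of low values, and on the fraction minus the mean of its line for methylation. With Benjamini-Hochberg adjustment over all genes, none of the 9 members with H3K4me3 in all 4 lines passed an adjusted p of 0.05, nor did any of the 9 for H3K36me3 or the 10 for methylation. Of all genes tested, 0.481%, 0.112% and 0.00395% passed. At an unadjusted p under 0.05 limma gave 0, 0 and 1 members, beside 0.977%, 0.681% and 4.72% of all genes. A missing call does not show that the origins are alike, since with this spread between lines even large differences can miss the threshold. No exact permutation test of 2 lines against 2 can go below p = 0.333.

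For H3K4me3 the largest differences were at Eed, 0.30 (standard error 0.48), and Kmt2b, 0.27 (standard error 0.53), and Jarid2 was lowest at -0.13 (standard error 0.49). Eed was the only member whose lines did not overlap, higher in TTF, where 5.04% of all genes were so, and no member was lower without overlap, against 3.17%. In RPKM, Eed averaged 4.35 ± 0.138 (SD, n = 2 lines) in PTC iPSCs and 5.67 ± 1.54 (SD, n = 2 lines) in TTF iPSCs. At Setd2 the means were 5.79 ± 1.93 and 6.29 ± 2.27 RPKM (SD, n = 2 lines each), a difference well within the spread. The median over members was 0.097 and over all genes 0.045.

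H3K36me3 differed by less than its standard error at every member tested. The differences ran from -0.35 (standard error 1.19) at Suz12 to 0.21 (standard error 0.96) at Setd1a, with a median of -0.034 over members and -0.14 over all genes. Origins overlapped at all 9 genes, where 3.5% of all genes did not overlap. The standard errors were close to 1 log2 unit or above, since PTC11 and TTF1 lay far below PTC12 and TTF4, so that a difference of that size between the origins could not have been told from the spread. The split of lines was common to all genes: PTC12 and TTF4 both lay above PTC11 and TTF1 at 9 of 9 members and at 93.6% of all genes. In H3K4me3, PTC12 and TTF1 both lay above PTC11 and TTF4 at 7 of 9 members, the exceptions being Setd1a and Eed, and at 81.4% of all genes.

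In methylation Nsd1 had the largest difference, 0.429 as centred fraction (standard error 0.150), which limma gave an unadjusted p of 0.00599 and an adjusted p of 0.708. The TTF lines exceeded the PTC lines at Nsd1 without overlap, with fractions of 0.0306 ± 0.0369 (SD, n = 2 lines) in PTC iPSCs and 0.546 ± 0.632 (SD, n = 2 lines) in TTF iPSCs, but the SD of the TTF lines shows that the difference was mostly that of TTF4. Without TTF1 it was 0.740 with a limma adjusted p of 2.89e-06, in a fit that takes TTF4 alone to vary like the PTC lines, and over the other 9 alternatives the adjusted p lay between 0.305 and 1. Without TTF4 the difference was 0.117. The other members differed by -0.119 (Eed) to 0.0320 (Setd1a), each by less than its standard error of 0.126 to 0.128. The median over members was -0.0626 and over all genes -0.0100. As deposited, without centring, lines did not overlap at 5 members: TTF was higher at Setd2, Nsd1 and Ezh2, where 20.5% of all genes were so, and lower at Setd1b and Kmt2b, against 3.36%. Since the mean of TTF4 is high, centring lowers the difference at every gene and turns it to -0.0561 at Setd2 and -0.0265 at Ezh2. The sign also turned from positive to negative at Kmt2a, Suz12 and Jarid2. A negative centred difference at these weakly methylated starts thus need not mean less methylation in the TTF lines. TTF4 had the highest fraction at 5 of 10 members, Setd1a, Nsd1, Ezh2, Suz12 and Jarid2, and at 75.4% of all genes.

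**Figure D5:**
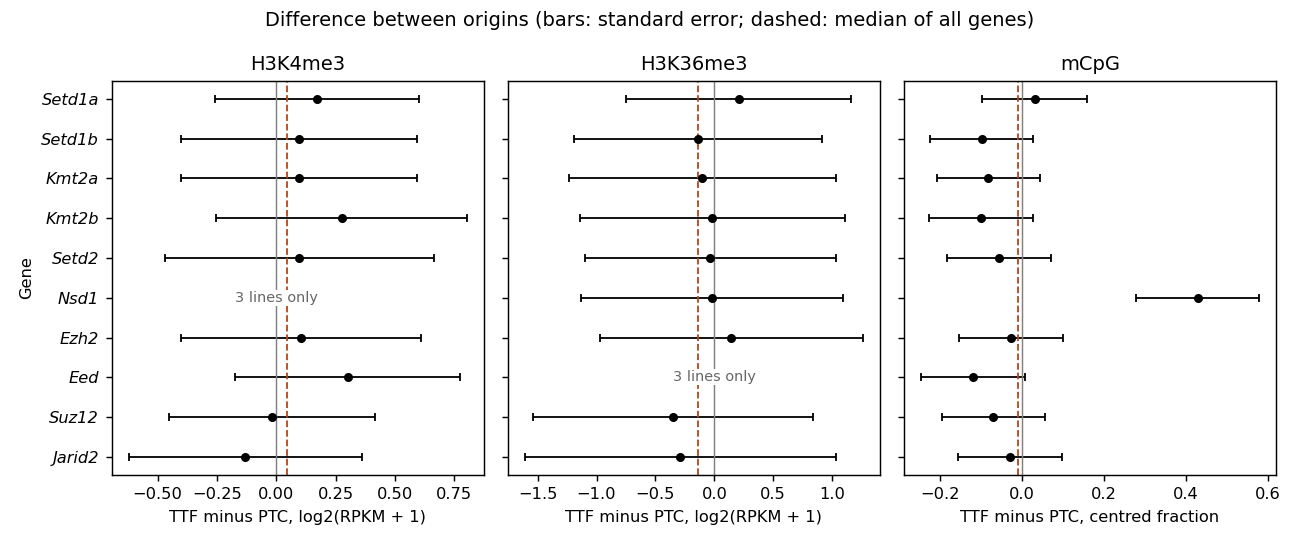
Difference of TTF minus PTC for each gene, on log2(RPKM + 1) for H3K4me3 and H3K36me3 and as centred fraction for CpG methylation (mCpG), with bars of 1 standard error to each side from limma and a dashed line at the median of all genes. The bars cross 0 in every panel but at Nsd1 in methylation, at 0.429, whose adjusted p was 0.708, and genes with a value in 3 lines only are marked.

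None of the 10 genes had an H3K27me3 value in any of the 4 libraries of that mark, which PRC2 writes. Only 192 of 43984 genes had a value in any of them, too few to read the absence of a value as absence of the mark. Both PTC libraries of this mark carry the name of line PTC11, so that H3K27me3 was not compared between origins.

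No related gene passed the test between origins either. The lists hold 18 COMPASS subunits and other H3K4 methyltransferases, 10 other H3K36 methylation genes, 10 other PRC2 genes, 16 erasers of these marks, and 9 writers and erasers of DNA methylation, and of those with values in all 4 lines 0 had an adjusted p under 0.05 from limma, in any assay and direction. At an unadjusted limma p under 0.05 there were 2 of the 61 genes tested in methylation, a share below the 4.72% of all genes, and 0 in the histone marks. Both were named after their values were seen. Kdm6b, which removes methyl groups from H3K27, had fractions of 0.172 in PTC11 and 0.152 in PTC12 against 0.460 and 0.722 in TTF1 and TTF4, with a centred difference of 0.342 (standard error 0.144, adjusted p = 0.924 from limma). The other was Ash2l, described next. Median differences in H3K4me3 were -0.08, 0.11, -0.04, 0.08 and 0.08 on the log2(RPKM + 1) scale, near the 0.045 of all genes. In H3K36me3 they were -0.16, -0.19, -0.28, -0.071 and -0.0055, beside -0.14 over all genes. In centred methylation they were -0.0521, -0.0532, -0.0200, -0.0264 and -0.0224, beside -0.0100 over all genes, on a scale that centring lowers.

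Among these genes, only Ash2l had H3K4me3 in PTC11, PTC12 and TTF1 but not in TTF4, as Nsd1 did. Of all genes with a value in those lines, 7.52% had none in TTF4. Ash2l, a core subunit of the H3K4 methyltransferase complexes, had 4.76 RPKM in PTC11, 2.88 in PTC12 and 3.12 in TTF1 and no value in TTF4. Its methylated fraction was 0.8999 in TTF4, against 0.0133, 0.196 and 0.105 in PTC11, PTC12 and TTF1, with a centred difference of 0.311 (standard error 0.147, adjusted p = 1.00 from limma), and H3K36me3 over its gene body was 5.57 RPKM in TTF4. As at Nsd1, a methylated start and an empty H3K4me3 entry were thus seen in TTF4 beside H3K36me3 over the gene body, but Ash2l lay outside the limits used above, since PTC12 and TTF1 exceeded 0.1. Aebp2 and Ezhip, which modulate PRC2, and Tet1, an enzyme that oxidises methylated cytosine, had values in PTC12 and TTF1 alone. Dpy30, Ash1l, Kdm4c and the Y-linked Kdm5d and Uty had none in any line, Kdm6b had none in PTC11, Dnmt1 had a value in PTC12 alone and Dnmt3l in TTF1 alone. For H3K36me3, Pagr1a, Setmar and Phf1 had no value in TTF4, Rbbp7 had none in TTF1 and Kdm5d had none at all.

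Mean fractions over 0.5 across the lines were seen at Dpy30, Ezhip, Kdm4c, Dnmt1, Dnmt3l and Tet1 among the related genes. Dnmt1, the maintenance DNA methyltransferase, had 0.559 in PTC11, 0.663 in PTC12, and 0.597 and 0.951 in TTF1 and TTF4, and Tet1 had 0.458, 0.779, 0.310 and 0.982. H3K36me3 over the gene body was present in every line, at 1.41 to 4.29 RPKM for Dnmt1 and 1.25 to 4.75 RPKM for Tet1. The fractions belong to the start used for each gene, and other starts of these genes were not looked up.

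The genes most like the members were sought over 12 columns, H3K4me3, H3K36me3 and methylation in 4 lines each, scaled to an SD of 1, among 9725 genes with all 12 values. The 8 members with all values, which leaves out Nsd1 and Eed, had a median profile closest to Picalm (Euclidean distance 0.695) and Pip4k2a (0.724), where the median gene lay at 3.18 and the members themselves between 0.698 and 2.78. Closest to single members were Nlgn2 to Kmt2a (0.543), Ptpn13 to Setd1b (0.705), Orc1 to Kmt2b (0.768), Taok1 to Setd2 (0.894), Cyb5d2 to Ezh2 (0.899), Pkp4 to Suz12 (0.955), Wee1 to Jarid2 (1.03) and Tasp1 to Setd1a (1.10). The 12 columns share lines and the splits between lines described above, and no gene outside the lists was compared further.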

How the data were processed

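Histone marks were measured by ChIP-seq and CpG methylation by nanopore sequencing in 2 PTC and 2 TTF iPSC lines, 16 libraries in all, grouped by the sample labels. The histone values are RPKM deposited by the authors: reads were aligned to mm10 with Bowtie, peaks called against input with MACS2 (2.0.10), reads counted in peaks with bedtools (2.17.0), input RPKM subtracted, and peaks averaged per gene at the TSS or over the gene body. Methylation was deposited by the authors as a fraction of methylated CpGs per gene, from reads aligned with minimap2 and averaged over windows within 1000 bases of the TSS. Which tool version served which library is as the submitters' processing notes list it. For H3K27me3 genes with a value were counted and not compared.

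Only genes measured in all 4 lines entered the fit with limma (3.58.1, under R 4.3.3), whose variances were moderated along a mean trend, on log2(RPKM + 1) or on the fraction minus the mean of the line, with Benjamini-Hochberg adjustment over all of them. No filter on low values was used, and values listed at 0 were kept. Members passing the need for all 4 lines were 9, 9 and 10. Other steps used Python 3.11.15, numpy 2.4.6, pandas 2.3.3 and matplotlib 3.10.9. The fit was first tested on simulated data, where at the spread of these lines most of the large H3K4me3 changes put in, and all of those in H3K36me3 and methylation, were missed. Alternatives were another pseudocount (0.1), quantile normalization, a mean of at least 1 RPKM, values in at least 3 lines, values at 0 as missing, no centring, a logit scale, no trend, a block of line pairs and each line left out.

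The 10 genes and the gene lists were chosen with earlier results of these data known. Named besides the members are listed genes past the threshold, without a value in a line or with a mean fraction over 0.5, genes that share the H3K4me3 of a member, and nearest genes. Tcl1, Pmaip1 and the other genes methylated in TTF4, and the neighbours of Nsd1, were chosen after their values were seen. Coordinates and transcripts are from the files and GENCODE on mm10, promoters from RefSeq on GRCm38.p6. Replicates are separate clones. Per the study's methods both cell types were taken from littermates and the methylation replicates are independent animals, but the labels do not tie a line to an animal. Columns of the authors' own comparisons were not used here. One of the nearest genes is not reported here.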

Additional observations from a re-analysis of the deposited data

How the results depend on the processing

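No member passed the limma test under any alternative in H3K4me3 and H3K36me3, and in methylation Nsd1 passed in 1, without TTF1, so that leaving out a line gave 0 to 1 members. No other call of a member changed. The limits are the spread between 2 lines per origin and the unknown depth, which can leave even large differences without a call. Numbers of genes called over the genome depended on the setting. In H3K4me3 66 genes were called, 102 with a pseudocount of 0.1, 183 with values in at least 3 lines, 59 to 108 with a line left out, and 0 with quantile normalization, a mean of at least 1 RPKM, no trend, or values at 0 as missing (318, 14, 3 and 24 at an unadjusted limma p under 0.05). In H3K36me3 19 were called, 44 and 29 under the first 2 alternatives, 1 to 31 with a line left out, and 0 under the same 4 (502, 4, 4 and 11 unadjusted). In methylation 2 were called, 1 without the trend, 0 to 1020 with a line left out, and 0 not centred, with quantile normalization or on the logit scale (1006, 2438 and 1905 unadjusted). The causes were not tested. Nsd1 for H3K4me3 and Eed for H3K36me3, fitted on 3 lines, differed by 0.50 (standard error 0.54) and 0.09 (standard error 1.40), each at an adjusted p of 1 from limma.

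Line numbers are not shared between origins, so that the replicate block joined TTF1 to PTC11 and TTF4 to PTC12 as the study groups them for H3K36me3. With that pairing 34 genes were called in H3K4me3, 167 in H3K36me3 and 24 in methylation, and with the pairs crossed, an alternative added after seeing the data, 2, 0 (65 at an unadjusted limma p under 0.05) and 24. No call of a member changed under either block. Pearson's r across genes between the deviations of PTC11 and TTF1 was -0.419 in H3K4me3, 0.470 in H3K36me3 and 0.115 in methylation, so that the pairing was not general.

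Directions of single members were not stable, and with 1 line left out the median of all genes moved as well. It ran from -0.209 to 0.306 in H3K4me3, from -0.732 to 0.464 in H3K36me3 and from -0.0163 to 0.0161 in methylation. Eed kept its direction with each line left out in H3K4me3 and methylation, as did Nsd1 in methylation. In H3K36me3, quantile normalization, which moved the median of all genes from -0.14 to 0.01 on the log2 scale, gave 0.078 at Kmt2a, 0.15 at Kmt2b, 0.10 at Setd2 and 0.19 at Nsd1. In methylation the difference was 0.00553 at Kmt2a, 0.0310 at Setd2, 0.0606 at Ezh2, 0.0181 at Suz12 and 0.0585 at Jarid2 without centring, which moved the median of all genes to 0.0771, 0.0109 at Kmt2a, 0.0247 at Setd2, 0.0537 at Ezh2 and 0.0209 at Jarid2 with quantile normalization, and 0.502 at Setd2, 1.98 at Ezh2 and 0.569 at Jarid2 on the logit scale. Leaving out 1 line at a time gave, in H3K4me3, -0.066 to 0.41 at Setd1a, -0.31 to 0.50 at Setd1b, -0.22 to 0.41 at Kmt2a, -0.053 to 0.60 at Kmt2b, -0.23 to 0.42 at Setd2, -0.26 to 0.46 at Ezh2, -0.26 to 0.22 at Suz12 and -0.56 to 0.30 at Jarid2, in H3K36me3, -0.44 to 0.85 at Setd1a, -0.76 to 0.48 at Setd1b, -0.57 to 0.37 at Kmt2a, -0.46 to 0.42 at Kmt2b, -0.76 to 0.69 at Setd2, -0.51 to 0.47 at Nsd1, -0.36 to 0.65 at Ezh2, -0.98 to 0.29 at Suz12 and -1.11 to 0.53 at Jarid2, and in methylation, -0.0297 to 0.0938 at Setd1a, -0.233 to 0.0379 at Setd1b, -0.223 to 0.0603 at Kmt2a, -0.230 to 0.0306 at Kmt2b, -0.193 to 0.0812 at Setd2, -0.136 to 0.0829 at Ezh2, -0.172 to 0.0339 at Suz12 and -0.103 to 0.0459 at Jarid2.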
